A study of Mus musculus with 16 samples.

Results

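Melanomas of the iHRAS* mouse were compared with normal mouse melanocytes on Affymetrix mouse arrays, which measure messenger RNA with short probes. The groups compared were 10 of the 16 arrays of the series, chosen by their titles. They were 6 of iHRAS* tumours (called iRas tumour ras1 to ras6 there) and 4 of melanocytes (Cnt1 to Cnt4). Normalization, filter and fit used all 16 arrays. The 6 tumours of the other model (Tyr-rtTA;Tet-Met;Ink4a/Arf-/-) therefore entered the estimate of the spread behind each limma p-value. The tumour genotype was Tyr-rtTA;Tet-HRASV12G;Ink4a/Arf-/-. In that model the tyrosinase promoter, active in pigment cells, drives a tetracycline-responsive activator, which switches on an activated human HRAS in an animal lacking the Ink4a/Arf locus. The melanocytes were labelled as free of disease, and their genotype, age and growth conditions, like the age and treatment of the tumour-bearing animals, are not given in the sources used here. The HRAS transgene, the loss of Ink4a/Arf, the tumour state and any difference in growth conditions therefore cannot be told apart. The tumour labels speak of isolated melanoma cells, whereas the design text speaks of RNA from cutaneous melanomas, and the sources do not settle which was hybridised. Whether each sample is from an animal of its own is not stated, so p-values measure the spread between the samples within groups, which may be technical. In such bulk samples, fewer cells of a type and less RNA per cell cannot be told apart.

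HRAS is a small GTPase that, when locked in its active state, signals through the RAF, MEK and ERK kinases. ERK signalling raises its own feedback inhibitors, such as the DUSP phosphatases and the Sprouty and SPRED proteins, together with AP-1 and ETS transcription factors and the cyclin D1 gene. Melanocytes are pigment cells derived from the neural crest, whose identity rests on the transcription factors MITF, SOX10 and PAX3 and on the KIT receptor. A skin tumour also holds keratinocytes, fibroblasts, vessels and immune cells, each with its own marker genes.

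Values are log2 signals after quantile normalization, so that 1 unit is a 2-fold difference, and a call means a limma p under 0.05 after Benjamini-Hochberg adjustment over all genes tested. Of 12393 genes with a probe set, 8651 had a signal above the 40th percentile (log2 6.21, the dim level below) on at least 4 arrays and were tested. Of these, 1565 were called higher in iHRAS* tumours (18.1%) and 1839 lower (21.3%). Each count of list members given below is to be read beside these shares. The ranges of both groups did not overlap for 2091 of the 3404 called genes, against 25.3% of all genes tested. A fitted difference of at least 4-fold was reached by 680 called genes, some of them with a group below the dim level. The median difference of all genes tested was -0.09, and it was -0.21 on the values as deposited and -0.23 after centring each array on its median. Higher calls made up 46.0% of all calls, but 35.6% on deposited values and 34.2% after centring. Where all arrays of a group lay below the dim level, as in 438 of the higher and 82 of the lower calls, the fold is given as a bound, with the dim group set at that level. The bound was at least 2-fold for 227 of these higher and 12 of these lower calls. The count of 680 was made without such bounds.

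Arrays of a group resembled each other more than those of the other group. Over the tested genes, the correlation across genes ran from 0.82 to 0.95 within iHRAS* tumours, from 0.87 to 0.96 within melanocytes and from 0.63 to 0.76 between groups. The first principal component of the 10 arrays held 57.2% of the variance and separated the groups, and the second (11.9%) set tumours 2 and 3 apart from the other tumours. The hybridisation spike-ins bioB and bioC read lower on the tumour arrays, as bioB-3 did at 7.87 ± 0.23 (SD, n = 6) against 8.78 ± 0.18 (n = 4; exact permutation p = 0.00952, the smallest possible; adjusted p = 0.0190 over 12 measures), while bioD-3 read 12.3 and 12.2. The signal of actin at its 3′ end over its 5′ end was also higher in tumours, by 0.32 (exact p = 0.00952, adjusted p = 0.0190). The part of these array differences in the gene results was not tested.

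All 16 macrophage markers rose in the tumours, with a median difference of 5.56, or 4.01 with dim melanocyte values set at the dim level, beside -0.09 for all genes tested. The mean of the 16 ran from 8.96 to 10.90 in tumours and from 4.24 to 4.73 in melanocytes, so the groups did not overlap. C1qa, a subunit of the complement starter C1q made mainly by macrophages, read 10.47, 12.20 and 12.55 (lowest, median, highest) in tumours and 1.80, 1.43, 2.66 and 2.64 in melanocyte arrays 1 to 4. It was thus at least 48.2-fold higher in tumours (adjusted p = 4.30e-10). Ctss, a lysosomal protease of antigen-presenting cells, was at least 60.6-fold higher, and the IgG receptor gene Fcgr3 at least 12.2-fold. Csf1r, the receptor that macrophages need for survival, read 9.49, 12.11 and 12.41 in tumours and 7.34, 6.83, 7.39 and 6.61 in melanocytes, a difference of 4.34 ± 0.52 (SE; adjusted p = 2.32e-05). Tumours 2 and 3 had the lowest macrophage means (9.26 and 8.96), and the other 4 tumours lay between 10.42 and 10.90.

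Of 14 endothelial markers tested, 11 rose, with a median of 2.42 (1.02 at the dim level). Plvap, which forms the diaphragms of vessel pores, read 7.45, 8.26 and 9.02 in tumours and 2.17 to 2.55 in melanocytes, at least 4.10-fold apart. Pecam1, the platelet and endothelial adhesion molecule, was at least 2.13-fold higher. Of 7 smooth muscle and pericyte markers tested, 3 rose and 2 fell. Cspg4, a proteoglycan of pericytes and of melanoma cells, read 9.36 to 11.00 in tumours and 5.84 to 7.22 in melanocytes and rose by 3.46 ± 0.40, while the smooth muscle actin gene Acta2, given further on, fell. Of 5 mast cell markers tested, 4 rose. The tryptase gene Tpsb2 read 7.71, 10.40 and 11.06 in tumours against 4.33 to 5.61 in melanocytes and was at least 12.2-fold higher. Of 5 neutrophil markers tested, 2 rose, the calprotectin genes S100a8 and S100a9. Epidermal keratinocytes express these under stress as well. S100a9 varied among tumours from 6.27 in tumour 1 to 12.61 in tumour 6. Of 10 muscle markers tested, 3 rose, and their mean was uneven among tumours, at 8.01 to 8.13 in tumours 2, 3 and 5, 6.03 in tumour 4, and 3.68 and 4.55 in tumours 6 and 1. The fast troponin Tnnc2 read 1.22, 6.76 and 8.83 in tumours and 1.41 to 1.64 in melanocytes (adjusted p = 0.0127), and it lost its call without tumours 2 and 3 (3.62, adjusted p = 0.0526). Both red cell markers tested (Alas2 and Hbb-b2) and the 1 adipocyte marker tested (Fabp4) rose, and the 1 lymphocyte marker tested, Cd4, had a mean below the dim level in both groups and was not called (adjusted p = 0.0584). It read 2.52 and 2.93 in tumours 2 and 3 and 6.94 to 8.79 in the others, and was called higher without tumour 2 or tumour 3 (differences 3.36 to 3.44). The T cell genes Cd3e, Cd3g and Cd8a exceeded the dim level on too few arrays to be tested.

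**Figure D1:**
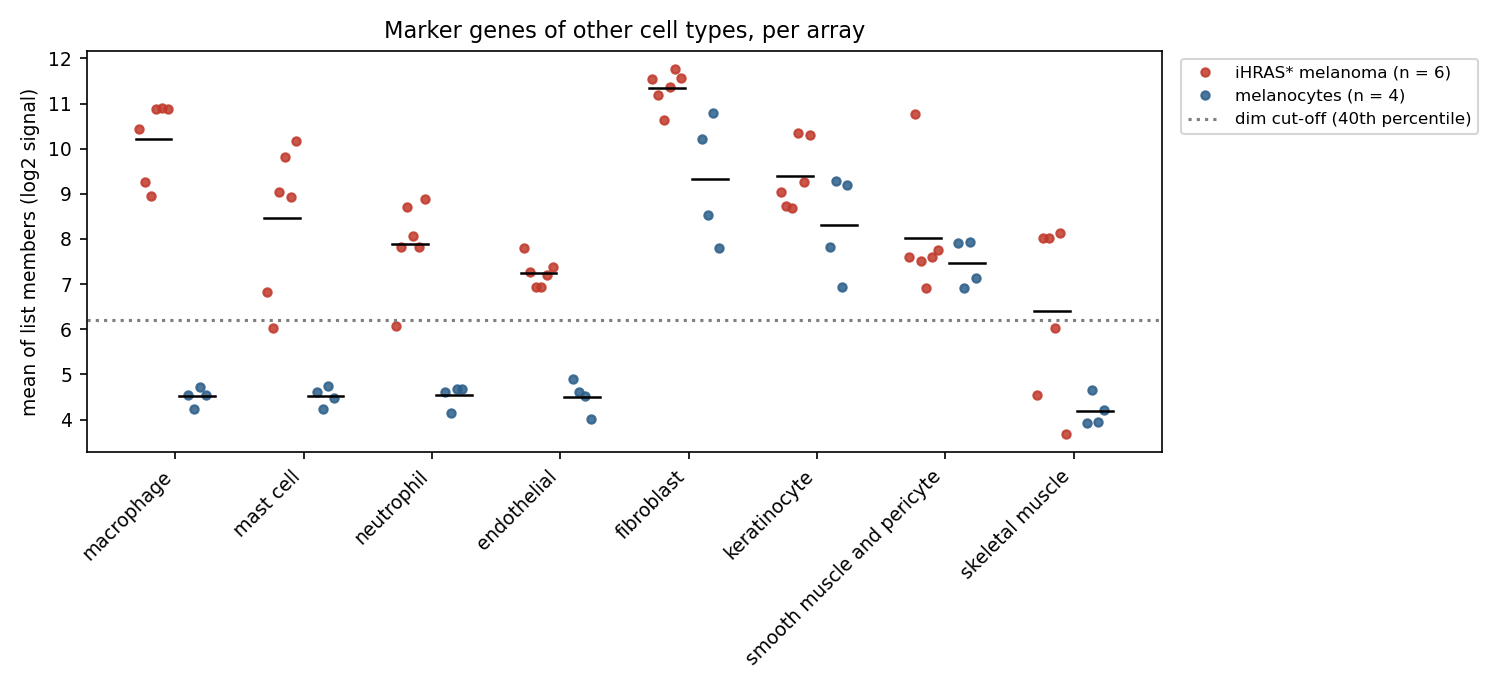
Mean log2 signal of the tested markers of 8 other cell types on each array (y axis), with red points for the 6 iHRAS* tumours, blue points for the 4 melanocyte arrays, black bars for group means and a dotted line at the dim level. The macrophage means of tumours (8.96 to 10.90) lie far above those of melanocytes (4.24 to 4.73), whereas the keratinocyte and smooth muscle means of both groups overlap.

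The melanocyte arrays also held other cells' transcripts and fell into pairs. Arrays 2 and 4 read 13.69 and 13.69 for Krt5 and 13.40 and 13.49 for Krt14, the keratins of the basal epidermis, and arrays 1 and 3 read 11.85 and 11.05, and 12.46 and 11.54. These keratins were high in the tumours as well, where Krt5 read 9.06, 11.08 and 12.50. Fibroblast markers ran the other way, with means of 10.22 and 10.79 in arrays 1 and 3 against 8.52 and 7.79 in arrays 2 and 4. Of 14 fibroblast markers, 8 rose in tumours, at a median difference of 1.81. Taken against arrays 1 and 3 alone the median was 0.34, and against arrays 2 and 4 it was 2.93. Refitted without arrays 1 and 3, 13 were called higher, and without arrays 2 and 4, 5. Dcn, the collagen-binding proteoglycan decorin, read 12.21, 13.11 and 13.69 in tumours and 9.40, 7.82, 11.06 and 8.09 in melanocytes. It rose by 3.98 ± 0.48 (adjusted p = 2.32e-05). Pdgfra, the PDGF receptor of fibroblasts, rose by 3.79 ± 0.45, with 6.57 to 9.80 in melanocytes and 11.13 to 11.98 in tumours. The collagen gene Col1a1, at 12.82 to 13.69 in tumours, read 13.67, 11.90, 13.71 and 11.12 in melanocytes and was not called, although it was without melanocyte array 1 or 3 (differences 1.13 to 1.15). A dimmer Col1a1 probe set (mean 11.18) differed by 1.23 and was called higher (limma adjusted p = 0.00421 over all probe sets).

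Of 17 keratinocyte markers tested, 5 rose and 1 fell, beside 18.1% and 21.3% of all genes tested. The median difference was -0.47, while the mean of the list was higher in tumours (9.39 against 8.30), since a few members rose strongly. Those were genes of the upper epidermis and the adhesion genes Epcam and Cdh1. The member that fell was Jup, which encodes plakoglobin, also a protein of epithelial adhesion. Jup read 8.541 to 9.985 in tumours and 9.359 to 10.733 in melanocytes, with overlapping ranges. Krt1, a keratin of cells that have left the basal layer, read 7.94, 11.50 and 13.05 in tumours and 3.55, 5.83, 2.10 and 2.26 in melanocytes and was at least 27.6-fold higher. Epcam, an epithelial adhesion molecule, was at least 5.38-fold higher and Cdh1, the E-cadherin through which melanocytes also bind keratinocytes, at least 6.11-fold. Tumour 2 stood highest for both, at 11.54 and 10.75. The basal keratinocyte gene Trp63 differed by -1.81 ± 1.17 and was not called. Its dimmer probe sets, with means of 4.87 and 4.67, differed by -2.59 and -1.92. The first was called lower and the second was not called (limma adjusted p = 0.00562 and 0.0875 over all probe sets).

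**Figure D2:**
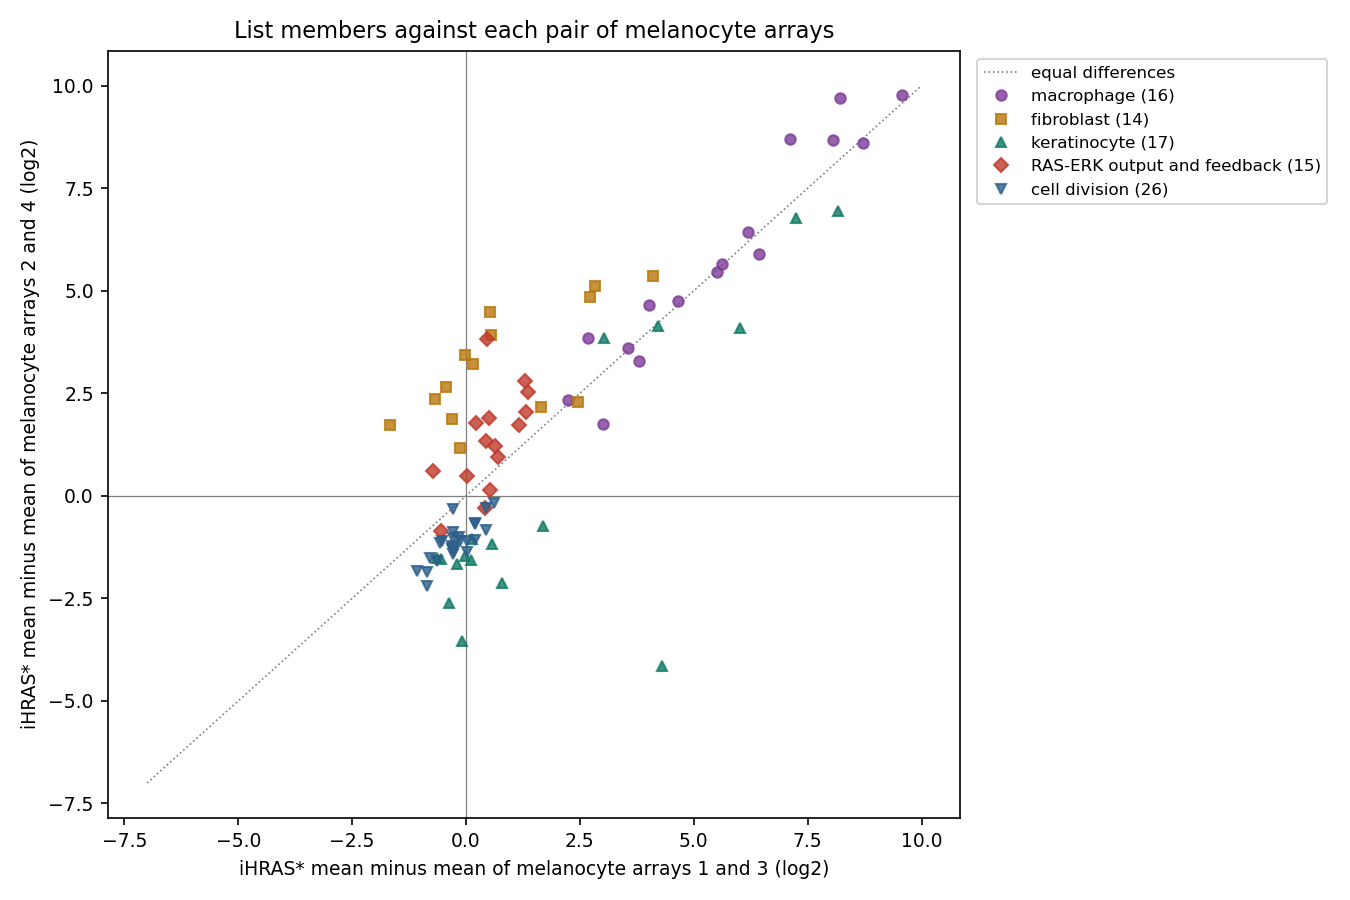
Difference of each list member between the iHRAS* mean and the mean of melanocyte arrays 1 and 3 (x axis, log2) or 2 and 4 (y axis, log2), for 5 lists, each point 1 gene and the dotted line marking equal differences. Macrophage markers lie near the line with a median of 5.56 on both axes, while the fibroblast median is 0.34 on the x axis and 2.93 on the y axis and the cell division median is -0.29 and -1.13.

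To separate other-cell content from the remaining differences, the fit was repeated with marker levels as covariates and with each pair of melanocyte arrays left out. With the array means of keratinocyte and fibroblast markers as covariates, 435 of the higher and 365 of the lower calls kept their call and at least 50% of their difference. Without melanocyte arrays 1 and 3 those counts were 1215 and 1315, and without arrays 2 and 4 they were 950 and 959. All 3 conditions were met, off the other-cell lists, by 341 higher genes (21.8% of those called) and 270 lower genes (14.7%), a class formed after the results had been seen. Adding endothelial and macrophage means left 39 higher and 36 lower calls. The macrophage mean alone separated the groups without overlap, so that this fit had little group difference left to estimate. Under all 4 conditions and off the lists, 19 higher and 15 lower genes remained. None of these fits assigns a transcript to a cell type.

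The 19 that stayed higher were led by Cd93, a C-type lectin receptor known from endothelial and myeloid cells, which no marker list held. It read 9.62, 9.98 and 11.19 in tumours and 0.87 to 2.66 in melanocytes, at least 16.7-fold apart (adjusted p = 4.30e-10). Another Cd93 probe set, with a mean of 4.97, differed by 0.09 and was not called (limma adjusted p = 0.936 over all probe sets). Il33, an alarm cytokine of epithelial and endothelial nuclei, read 10.99, 11.27 and 12.50 in tumours and 4.38, 5.19, 4.80 and 5.22 in melanocytes, at least 37.1-fold apart. Eps8, an EGF receptor substrate that shapes actin filaments, was at least 11.0-fold higher. Other genes of the class had melanocyte arrays above the dim level. Ceacam1, an adhesion molecule of the carcinoembryonic antigen family, rose by 4.30 ± 0.65, the tetraspanin gene Cd82 by 3.31 ± 0.27, and Septin9, a septin of the cytoskeleton, by 2.27 ± 0.23. Cd82 read 10.60 to 12.21 in tumours and 7.81 to 8.45 in melanocytes, so the groups stood apart by more than 2 log2 units. A dimmer Cd82 probe set (mean 6.39) differed by 0.08 and was not called (limma adjusted p = 0.883 over all probe sets). Evi2a, which lies in an intron of the RAS inhibitor gene Nf1, rose by 3.58 ± 0.22, and Dusp6 rose by 1.94.

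The 15 that stayed lower were led by Myrf, a membrane-bound transcription factor best known from oligodendrocytes. It read 2.29, 2.47 and 2.80 in tumours and 6.64, 7.57, 6.52 and 7.36 in melanocytes. Its fitted difference of -4.53 rests on tumour values far below the dim level, and the bound is 1.76-fold. Amotl2, an angiomotin that binds YAP at cell junctions, read 7.95, 8.34 and 8.89 in tumours and 11.43, 10.80, 11.37 and 11.37 in melanocytes and fell by 2.86 ± 0.29 (adjusted p = 4.69e-06). The serine protease gene Prss23 fell by 2.69 ± 0.44 and the kinase scaffold gene Akap12 by 2.45 ± 0.46. Phgdh, the first enzyme of serine synthesis, read 9.24 to 9.76 in tumours and 11.01 to 11.76 in melanocytes, with a difference of -1.84 ± 0.15 (adjusted p = 4.98e-07). Bid, which links death receptors to mitochondrial cell death, differed by -1.78 ± 0.41. The neural crest factor Snai2, described next, was also in the class.

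Melanocyte identity genes set limits on what both groups hold. The neural crest factors SOX10 and PAX3 were present in both. Sox10 read 9.45, 9.95 and 11.44 in tumours and 9.99, 9.19, 10.41 and 9.04 in melanocytes, and it was not called (difference 0.51 ± 0.38, adjusted p = 0.307). The enzymes of melanin synthesis were below the dim level on all melanocyte arrays and most tumour arrays. Tyr, the key enzyme of melanin synthesis, read 0.55 to 5.38 in melanocytes, Tyrp1 3.53 to 4.99 and Dct 2.18 to 5.05, and none of the 3 passed the filter. Among tumours all 3 exceeded the dim level in tumour 6 alone, where they read 7.34, 7.32 and 7.66, and tumour 4 read 6.41 for Dct. The melanocortin receptor gene Mc1r and the melanocyte channel gene Trpm1 were below the dim level on all 10 arrays. Other pigment cell genes were above the dim level on all 4 melanocyte arrays, at 6.90 to 7.22 for the melanosome transporter gene Slc45a2, 6.83 to 9.16 for Mlph, which links melanosomes to the cell's motors, and 7.96 to 10.21 for Rab38. The label of the melanocyte arrays was thus met by Sox10, these 3 genes and Pax3, the last little above the dim level (6.42 to 6.72). It was not met by Tyr, Tyrp1, Dct, Mc1r and Trpm1, nor by Mitf (5.38 to 6.02) and Kit (1.45 to 4.69). The lineage gene Gpnmb exceeded the dim level on melanocyte array 4 alone (6.72, others 4.86 to 6.16). Oca2, Gpr143 and Rab27a, also on the lineage list, did not pass the filter. Pmel, Ednrb and Tfap2a passed it, but their levels do not enter this account of the label. Rab38 was highest on arrays 2 and 4, those with more Krt5 and Krt14 signal.

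Of 11 pigmentation and lineage genes tested, 3 rose and 1 fell, beside 18.1% and 21.3% of all genes tested. Mitf, the master regulator of the lineage, read 6.21, 7.41 and 8.09 in tumours and 5.38, 5.64, 6.02 and 5.63 in melanocytes, where every array lay below the dim level. It was at least 2.19-fold higher in tumours (adjusted p = 0.000804). Kit, the receptor of stem cell factor, read 5.19, 7.30 and 7.92 in tumours and 1.88, 1.45, 1.91 and 4.69 in melanocytes and was at least 1.65-fold higher (adjusted p = 9.72e-05). Mast cells carry KIT and MITF as well. In tumours 1 to 6, Kit read 7.13, 6.13, 5.19, 7.76, 7.47 and 7.92, and the mean of the mast cell markers was 6.82, 6.02, 9.05, 9.83, 8.94 and 10.16. Apart from tumour 3, the tumours stood in the same order by both. Mitf read 7.44, 6.21, 7.56, 8.09, 7.36 and 7.38 in tumours 1 to 6 and did not keep that order, with tumour 6 below tumour 1. The part of mast cells in the rise of Kit and Mitf was not tested. Rab38, which delivers enzymes to melanosomes, fell by 1.57 ± 0.43, but its ranges overlapped and it lost its call without melanocyte arrays 2 and 4 (-0.67).

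Of 17 neural crest and Schwann cell genes tested, 6 rose and 2 fell, beside 18.1% and 21.3% of all genes tested. Without melanocyte arrays 2 and 4, 3 rose. Neurofilament genes moved most. Nefl, the light neurofilament, read 10.45, 11.97 and 12.45 in tumours and 5.12, 2.87, 4.81 and 1.02 in melanocytes, at least 45.9-fold apart (adjusted p = 2.36e-06). Nefm, the medium neurofilament, read 8.94, 10.02 and 10.94 in tumours and 6.71, 3.08, 6.66 and 4.67 in melanocytes and rose by 4.84 ± 1.08. Against melanocyte arrays 1 and 3 alone its difference was 3.44, and against arrays 2 and 4 it was 6.25. Egr2, a transcription factor of myelinating Schwann cells and an early growth response gene, rose by 3.01 ± 0.64, and the myelin protein gene Pmp22 by 1.59 ± 0.30. Snai2, the neural crest repressor SLUG, ran the other way. It read 5.30, 6.98 and 7.93 in tumours and 8.64, 8.77, 8.72 and 8.68 in melanocytes, whose arrays lay close together, and fell by 1.96 ± 0.40 (adjusted p = 0.00163). Ngfr, the nerve growth factor receptor CD271, fell by 2.08 ± 0.73 (adjusted p = 0.0333), with overlapping ranges of 6.57 to 10.36 and 9.42 to 11.48. It lost its call without melanocyte array 1 (-1.79), melanocyte array 3 (-1.73), or tumour 1, 2 or 3 (-1.94 to -1.73).

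**Figure D3:**
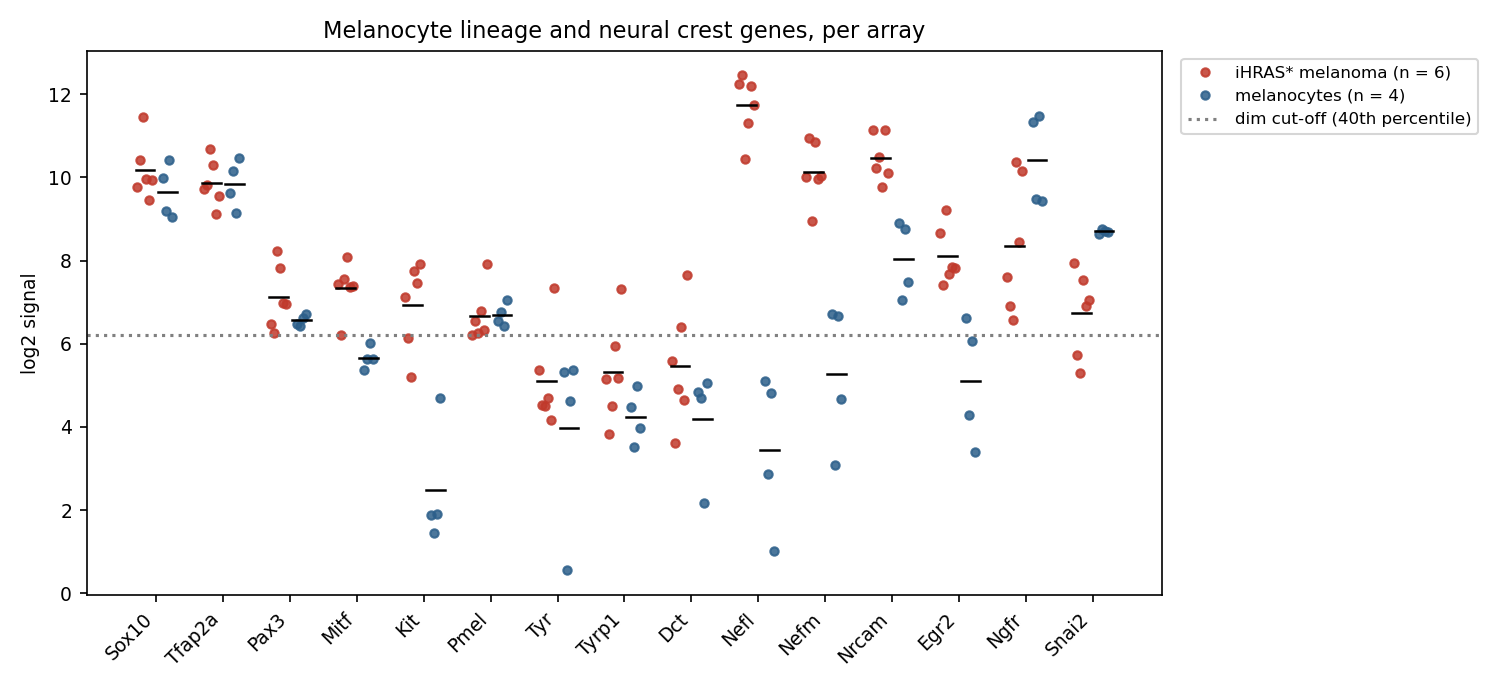
Log2 signal of 15 melanocyte lineage and neural crest genes on each array (y axis), red for the 6 iHRAS* tumours and blue for the 4 melanocyte arrays, with black bars for group means and a dotted line at the dim level. Tyr, Tyrp1 and Dct lie mostly below the dim level in both groups, Nefl lies above 10 in every tumour, and Snai2 is lower in every tumour than in the melanocytes.

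Of 15 genes that ERK signalling is known to raise, 8 rose and 1 fell, beside 18.1% and 21.3% of all genes tested. Their median difference was 0.93. The cases that stood apart without overlap were Spred1, Ccnd1 and Dusp6. Dusp6, the phosphatase that switches ERK off, read 10.31, 10.52 and 11.22 in tumours and 9.48, 8.67, 9.10 and 7.59 in melanocytes, every tumour above every melanocyte array. It rose by 1.94 ± 0.29, 3.84-fold (adjusted p = 0.000152). Spred1, which holds RAS in check with neurofibromin, read 10.16, 10.42 and 10.54 in tumours and 9.07, 8.75, 9.41 and 8.60 in melanocytes and rose by 1.44 ± 0.16 (adjusted p = 1.01e-05). Ccnd1, cyclin D1, read 12.25, 12.44 and 12.62 in tumours and 11.27, 10.78, 10.98 and 10.04 in melanocytes and rose by 1.68 ± 0.23, 3.19-fold (adjusted p = 8.40e-05). For all 3 genes the tumours lay closer together than the melanocyte arrays did.

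Fosl1, the AP-1 subunit FRA1, read 8.16, 8.73 and 10.21 in tumours and 8.23, 6.55, 7.13 and 5.80 in melanocytes and rose by 2.05 ± 0.43 (adjusted p = 0.00187), with tumour 6 just below melanocyte array 1. The ETS factor gene Etv4 rose by 2.15 ± 0.75, but it lost its call without melanocyte array 2 or 4, or tumour 2 or 3 (differences 1.18 to 2.07). Egr1, an immediate early gene, differed by 0.93 ± 0.38 and was not called (adjusted p = 0.0658), though it was without tumour 4 (1.06). Spry2, a Sprouty inhibitor, rose by 0.88 ± 0.23 on its brightest probe set, but the mean of its probe sets differed by -0.26, since another probe set was called lower. Myc, which ERK stabilises as a protein, was lower by 0.71 ± 0.23 (adjusted p = 0.0253), and its call was lost without melanocyte array 1 or 2 (-0.61 to -0.55). The Myc values of the 6 tumours, 8.35 to 8.60, overlapped those of melanocyte array 3 (8.53).

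The size of the ERK output differences depended on the melanocyte arrays used. Their median was 0.51 against melanocyte arrays 1 and 3 and 1.33 against arrays 2 and 4. Without arrays 2 and 4, 3 of the 15 were called higher, and without array 2 alone 5 were. Dusp6 and Spred1 kept their calls in all these fits and with 2 marker covariates, where Dusp6 differed by 1.45 and Spred1 by 0.89. Ccnd1 was not called with the covariates (difference 1.15, adjusted p = 0.0711). Fibroblasts express these genes too, and the part of the marker levels in their rise was not tested beyond these fits.

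**Figure D4:**
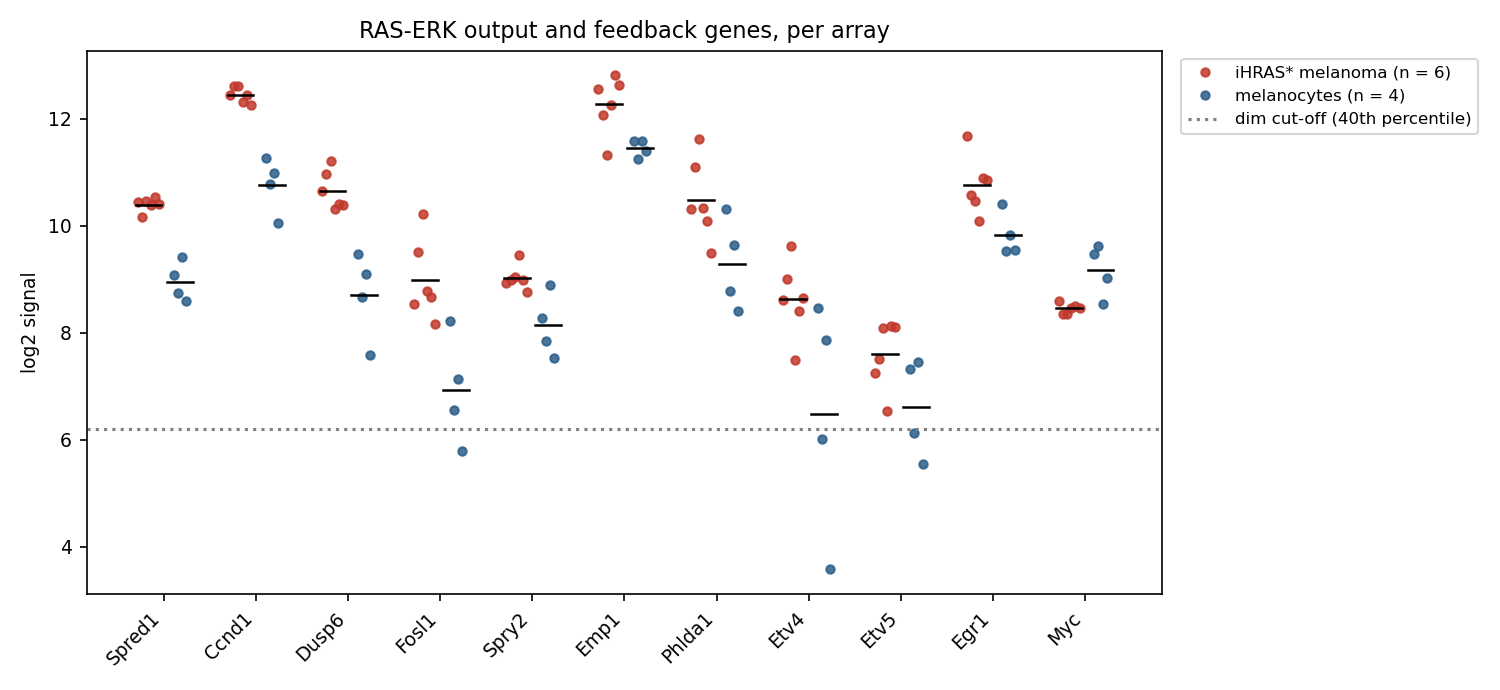
Log2 signal of 11 RAS-ERK output and feedback genes on each array (y axis), red for the 6 iHRAS* tumours and blue for the 4 melanocyte arrays, with black bars for group means and a dotted line at the dim level. Spred1, Ccnd1 and Dusp6 are higher in all tumours than in any melanocyte array, while melanocyte arrays 1 and 3 reach into the tumour range for Etv4, and Myc is lower in tumours.

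Of 11 components of the cascade itself tested, 2 rose and 3 fell, beside 18.1% and 21.3% of all genes tested, and no probe set was named Hras. Ksr1, the scaffold that holds RAF, MEK and ERK together, read 7.72 to 8.52 in tumours and 6.38 to 7.44 in melanocytes and rose by 1.33 ± 0.20 (adjusted p = 0.000158). Braf, the kinase below RAS, fell by 0.88 ± 0.18 with 5.84 to 6.66 in tumours, near the dim level. Nras, the RAS gene most often mutated in human melanoma, fell by 0.59 ± 0.14 on its brightest probe set (adjusted p = 0.00422). Its other probe sets, with means of 7.84 and 8.82, differed by -0.05 and -0.40. They were not called (limma adjusted p = 0.845 and 0.139 over all probe sets).

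Ligands of the EGF receptor family moved in different directions. Btc, betacellulin, read 8.66, 9.20 and 9.95 in tumours and 6.68, 6.73, 6.08 and 7.01 in melanocytes and rose by 2.60 ± 0.35 (adjusted p = 5.86e-05). Ereg, epiregulin, read 8.53, 9.16 and 10.20 in tumours and 7.48, 5.32, 7.48 and 5.46 in melanocytes and rose by 2.83 ± 0.43 (adjusted p = 0.000173). Epgn, epigen, fell: it read 4.80, 5.30 and 5.62 in tumours, all below the dim level, and 8.22, 8.95, 7.29 and 7.77 in melanocytes, and was at least 3.60-fold lower. The receptor genes Erbb2 and Erbb3 differed by -0.15 and 0.44, and neither was called. Of 6 genes of MET, its ligand and the ligand's activation, 2 rose and 2 fell, beside 18.1% and 21.3% of all genes tested. Met, the receptor of hepatocyte growth factor and the transgene of the other tumour model of the series, read 5.42, 7.18 and 7.46 in tumours and 7.85, 8.91, 7.25 and 9.13 in melanocytes. It fell by 1.35 ± 0.44 (limma adjusted p = 0.0244; exact permutation p = 0.0381), with overlapping ranges. It lost its call without melanocyte array 2 (-1.14) or 4 (-1.07). Its ligand gene Hgf was below the dim level on all 10 arrays and was not called (adjusted p = 0.952).

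Genes of cell division were lower or not different in the tumours. Of 26 tested, 0 rose in limma (0 at an unadjusted p under 0.05 and 0 with limma's mean-variance trend), and 9 fell, at a median difference of -0.73. Pcna, the sliding clamp of DNA replication, read 10.93, 11.12 and 11.65 in tumours and 11.95, 12.86, 11.62 and 11.87 in melanocytes and fell by 0.86 ± 0.20 (adjusted p = 0.00422). Rrm2, a subunit of ribonucleotide reductase, read 9.10, 9.81 and 10.29 in tumours and 11.28, 12.68, 10.08 and 11.36 in melanocytes and fell by 1.53 ± 0.38. Ndc80, a kinetochore protein, was at least 1.64-fold lower. The proliferation marker Mki67 differed by 0.21 ± 0.22 and was not called. Melanocyte array 2 had by far the highest mean of the list (10.18, against 8.51 to 8.94 in the other 3 and 7.93 to 8.87 in tumours). Without melanocyte arrays 2 and 4, 2 members were called lower, without arrays 1 and 3, 17, and without array 3 alone, 14. On deposited values 14 were called lower and after centring 15.

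Among D cyclins, CDK inhibitors and RB genes, 2 of 11 rose and 1 fell, beside 18.1% and 21.3% of all genes tested. The rise of Ccnd1 was counted with the ERK genes. Ccnd2, cyclin D2, read 7.62, 10.95 and 11.22 in tumours and 12.66, 12.54, 13.04 and 13.06 in melanocytes and fell by 2.54 ± 0.58 (adjusted p = 0.00345), so that Ccnd1 and Ccnd2 moved in opposite directions. Cdkn2a, which lies in the deleted Ink4a/Arf locus, was below the dim level in both groups, at 3.58 to 4.69 in tumours and 3.68 to 5.03 in melanocytes (exact permutation p = 0.390). It therefore did not check the tumour genotype. Of 15 p53 targets and regulators, 1 rose and 3 fell, beside the same shares. Mdm4, an inhibitor of p53, rose by 0.93 ± 0.18 and Zmat3, an RNA-binding p53 target, fell by 0.79 ± 0.20.

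Of 19 matrix-degrading enzymes and inhibitors tested, 9 rose and 2 fell, beside the 18.1% and 21.3% of all genes. Without melanocyte arrays 2 and 4, 5 rose. Among those that rose, the promoters of Mmp1a, Mmp3 and Mmp13, shown as examples, held the AP-1 motif TGAGTCA on either strand within 250 bases before to 50 after the start. The motif was found in 5.01% of the 7004 tested genes with a promoter sequence, in 7.01% of those called higher and in 4.09% of those called lower. Of the 4 ERK output genes that rose and had a promoter sequence, 1 held it, and 0 held the ETS motif CCGGAAG, which was found in 20.6% of all. The windows around each match, from RefSeq on GRCm38.p6, are printed 5′ to 3′ on the gene's strand with the motif in capitals, because these are the genes whose levels follow. They lie at chr9:7464023-7464119, chr9:7445731-7445827 and chr9:7272434-7272530, all on the plus strand, and a match of letters is not a shown binding site.
Mmp1a: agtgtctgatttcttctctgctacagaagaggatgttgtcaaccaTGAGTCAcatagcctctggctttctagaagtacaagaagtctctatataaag
Mmp3: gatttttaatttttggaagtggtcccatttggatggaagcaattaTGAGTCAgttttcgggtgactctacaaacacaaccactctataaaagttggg
Mmp13: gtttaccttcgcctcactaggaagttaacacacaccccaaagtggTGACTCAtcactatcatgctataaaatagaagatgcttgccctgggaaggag

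Mmp1a, an interstitial collagenase of the mouse, read 8.66, 9.69 and 10.98 in tumours and 1.75, 4.04, 3.24 and 0.27 in melanocytes, at least 12.0-fold apart (adjusted p = 1.04e-06). It kept its call with 2 marker covariates and without either pair of melanocyte arrays. Mmp3, stromelysin, read 8.11, 11.11 and 12.13 in tumours and 8.65, 6.82, 9.86 and 5.81 in melanocytes and rose by 2.91 ± 0.79. The collagenase gene Mmp13 read 6.43, 10.30 and 12.62 in tumours and 7.84, 4.93, 9.17 and 3.71 in melanocytes and rose by 3.66 ± 1.28 (adjusted p = 0.0338). In both cases melanocyte arrays 1 and 3, those with more fibroblast signal, reached into the tumour range, and Mmp3 and Mmp13 were not called without arrays 2 and 4 (1.44 and 1.57). Mmp13 was also lost without melanocyte array 2 (3.16) or 4 (2.76) or tumour 1, 3 or 5 (3.15 to 3.49). Plaur, the urokinase receptor, rose by 1.02 ± 0.31, and without melanocyte array 2 or 4 it was not called (0.78 to 0.91). Plat, tissue plasminogen activator, read 10.21 to 11.31 in tumours and 9.40 to 9.93 in melanocytes and rose by 1.26 ± 0.21. Ctsb, a lysosomal cathepsin, rose by 1.81 ± 0.19 and Adam8, a cell surface protease, was at least 3.90-fold higher. The inhibitors differed in direction: Timp1 rose by 2.05 ± 0.24 (adjusted p = 1.65e-05) and Timp2 fell by 0.99 ± 0.19 (adjusted p = 0.000832), both without overlap.

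Of 15 basement membrane genes tested, 3 rose and 3 fell, beside 18.1% and 21.3% of all genes tested. Nid1, nidogen, which ties laminin to collagen IV, read 11.83, 12.31 and 12.59 in tumours and 10.68, 6.93, 10.61 and 6.36 in melanocytes and rose by 3.64 ± 0.69. Lama5, a laminin chain of epithelial basement membranes, fell by 2.03 ± 0.28 (adjusted p = 8.01e-05). Thbs1, thrombospondin 1, read 7.99, 9.92 and 10.39 in tumours and 13.54, 13.13, 13.54 and 12.80 in melanocytes and fell by 3.65 ± 0.49, 12.6-fold (adjusted p = 5.92e-05). Of 13 integrins and adhesion receptors, 3 rose and 1 fell, beside the same shares. Icam1, a ligand of leukocyte integrins, was at least 3.03-fold higher, and Cdh3, P-cadherin, read 4.00, 4.81 and 7.83 in tumours and 8.46, 9.65, 7.45 and 9.16 in melanocytes and fell by 3.56 ± 0.60. Tumour 6 (7.83) was the only tumour with Cdh3 within the melanocyte range.

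Of 12 genes of the mesenchymal switch, 4 rose and 1 fell, beside 18.1% and 21.3% of all genes tested. Zeb1 rose by 1.23 ± 0.23 and Snai1 by 1.83 ± 0.34, both repressors of E-cadherin, whose gene Cdh1 was itself higher in tumours. Snai1 read 8.61, 9.26 and 9.99 in tumours and 7.94, 7.09, 8.27 and 6.30 in melanocytes. Tgfb2, a transforming growth factor, read 6.78, 7.41 and 8.34 in tumours and 10.79, 10.01, 11.21 and 10.28 in melanocytes and fell by 3.06 ± 0.31 (adjusted p = 4.45e-06).

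Antigen presentation genes rose throughout. All 14 tested were called higher, at a median difference of 3.08 (2.56 with dim groups at the dim level). H2-K1, a class I molecule, read 12.53, 13.24 and 13.66 in tumours and 10.63, 10.29, 10.53 and 9.34 in melanocytes and rose by 2.97 ± 0.28 (adjusted p = 2.75e-06). B2m, the light chain of class I, rose by 1.33 ± 0.21. Cd74, the invariant chain of class II, found in most tissues mainly in antigen-presenting cells, read 10.58, 13.05 and 13.33 in tumours and 5.76, 5.70, 5.92 and 5.61 in melanocytes and was at least 71.6-fold higher. H2-Aa, a class II chain, was at least 58.0-fold higher. Class I genes are close copies of each other, and probe sets may not tell them apart. The list mean was lowest in tumours 2 and 3 (9.17 and 9.18, against 10.34 to 11.56 in the others), which also had the lowest macrophage means. H2-K1, H2-D1, Cd74 and H2-Aa kept their calls with 2 marker covariates, and none of the 14 was called once macrophage and endothelial means were added.

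Of 16 interferon response genes, 13 rose, at a median of 1.41 (0.94 with dim groups at the dim level). In 7 of the 11 that rose and had a promoter sequence, the interferon response motif (GAAA, any 2 bases, GAAA) was found on either strand, as in 3.93% of all tested genes with a promoter and 5.38% of those called higher. The windows of Gbp2 (chr3:142620559-142620658, plus strand), Ifit1 (chr19:34640759-34640858, plus) and Rsad2 (chr12:26456518-26456617, minus) are shown as examples, from RefSeq on GRCm38.p6 in the orientation of the gene, with 1 match to the motif or its complement in capitals in each. The Ifit1 window holds a second match, left in lower case.
Gbp2: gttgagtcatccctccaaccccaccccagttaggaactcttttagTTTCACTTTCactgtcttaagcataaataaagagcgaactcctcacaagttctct
Ifit1: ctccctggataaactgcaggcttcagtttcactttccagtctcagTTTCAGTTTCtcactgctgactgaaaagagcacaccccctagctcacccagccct
Rsad2: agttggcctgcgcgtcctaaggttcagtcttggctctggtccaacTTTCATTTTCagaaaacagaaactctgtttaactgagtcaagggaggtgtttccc

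Gbp2, a guanylate-binding GTPase, read 7.97, 10.53 and 12.74 in tumours and 7.16, 7.36, 7.37 and 7.55 in melanocytes and rose by 3.13 ± 0.90 (adjusted p = 0.0125). Tumours 1, 4 and 5 lay above 11 and tumours 2, 3 and 6 between 7.97 and 9.16. Oasl2, an oligoadenylate synthetase relative, read 6.31, 7.76 and 9.62 in tumours and 4.06, 0.70, 4.48 and 0.80 in melanocytes and was at least 3.20-fold higher. Irf1, an activator of interferon-responsive genes, rose by 1.39 ± 0.37. Rsad2, the antiviral enzyme viperin, read 5.97, 6.21 and 6.62 in tumours and 4.63, 4.20, 5.70 and 5.52 in melanocytes, so that the bound is 1.03-fold, and it lost its call without melanocyte array 1 or 2 (fitted differences 0.96 to 1.10). Ifit1 read 4.25 to 7.95 in tumours and 1.90 to 5.93 in melanocytes, with a bound of 1.02-fold (adjusted p = 0.0474). It lost its call without melanocyte array 2 or 4 or any of tumours 1, 4, 5 and 6 (fitted differences 1.99 to 2.62). The count of 13 was smaller in other fits: 8 without melanocyte array 2, 7 without array 4, 8 without tumour 4 and 0 with 2 marker covariates.

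In energy metabolism single genes stood out. Of 18 glycolysis and hypoxia genes, 3 rose and 1 fell, beside 18.1% and 21.3% of all genes tested. Their median difference was -0.09. Egln3, an oxygen sensor that hypoxia itself raises, read 7.78, 9.99 and 12.14 in tumours and 5.50, 5.25, 6.49 and 4.77 in melanocytes and rose by 4.22 ± 0.76 (adjusted p = 0.000617). Slc16a3, the lactate exporter MCT4, read 8.04, 9.38 and 12.10 in tumours and 5.61, 5.80, 6.52 and 5.66 in melanocytes and rose by 3.74 ± 0.86. For both genes tumour 3 was highest and tumours 1 and 5 were low. Tumours 2, 3 and 4 had the highest means of the list (10.62, 11.41 and 10.23), and the other tumours lay at 9.32 to 9.56, beside 9.48 to 9.91 in the melanocytes. Of 22 respiratory chain subunits, 7 fell, all by less than 1 log2 unit. Ndufa9 of complex I led them and fell by 0.91 ± 0.16 (adjusted p = 0.000521). With the probe sets of a gene averaged, 4 fell. In cholesterol synthesis 4 of 12 rose, led by Idi1 (1.21 ± 0.34), but 1 on deposited or centred values, 2 without melanocyte array 4 and 0 without melanocyte arrays 2 and 4. Of 12 heat shock and chaperone genes, 2 fell, beside 21.3% of all genes tested. Hspb1, a small heat shock protein, fell by 1.24 ± 0.35.

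**Figure D5:**
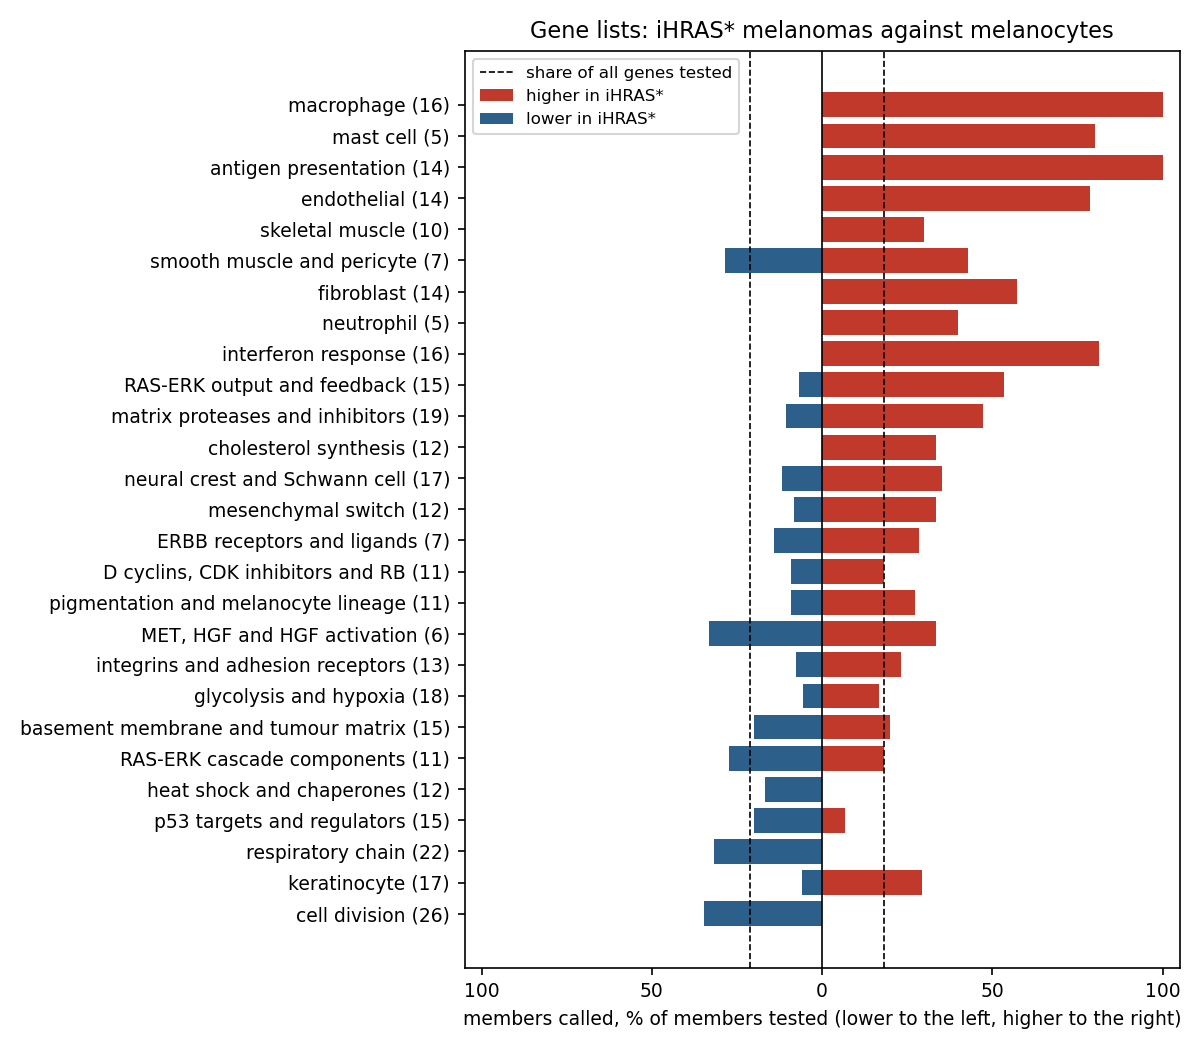
Share of tested members of each list called higher (red, to the right) or lower (blue, to the left) in iHRAS* tumours than in melanocytes, in percent of the members tested (number in brackets), with dashed lines at the shares over all genes tested (18.1% and 21.3%). Macrophage and antigen presentation lists reach 100% higher, and the cell division and respiratory chain lists hold 9 and 7 lower calls and no higher ones.

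The largest increases without overlap were mostly genes of immune cells. Of the 15 largest, C1qa, Ctss, C1qc, Fcgr3 and C1qb were on the macrophage list. Srgn, the granule proteoglycan of blood cells, was at least 34.5-fold higher, Coro1a, a leukocyte actin regulator, at least 14.9-fold, and Lyz1, a lysozyme with a close copy in Lyz2, at least 59.1-fold. Outside these, Gpx3, the secreted glutathione peroxidase, read 9.90, 10.51 and 11.90 in tumours and 2.35, 2.27, 2.31 and 3.13 in melanocytes and was at least 23.2-fold higher. Wif1, a secreted WNT inhibitor, was at least 7.66-fold higher, from 4.85 in tumour 3 to 11.01 in tumour 5.

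Among the larger decreases, C1qtnf3, a secreted relative of adiponectin, read 2.79, 4.73 and 8.24 in tumours and 10.27, 11.31, 9.57 and 10.80 in melanocytes and fell by 5.21 ± 0.94 (adjusted p = 0.000631). Igfbp2, which binds insulin-like growth factors, read 4.37, 8.24 and 10.21 in tumours and 12.88, 13.34, 12.51 and 13.53 in melanocytes and fell by 5.17 ± 0.98. Kcna1, a voltage-gated potassium channel, read 2.91 to 6.49 in tumours and 8.67 to 10.88 in melanocytes and fell. Myl9 and Acta2, the light chain and actin of contractile cells, fell by 4.20 ± 0.90 and 3.03 ± 0.67. Acta2 read 13.93 to 13.97 in melanocytes, and 9.31 to 12.81 in tumours. Anxa3, an annexin, read 7.71, 8.70 and 10.37 in tumours and 12.51, 12.65, 11.97 and 12.94 in melanocytes and fell by 3.71 ± 0.38. The cyclin-dependent kinase gene Cdk18 read 2.93 to 6.25 in tumours and 8.41 to 9.25 in melanocytes and fell. The homeobox genes Hoxb9 and Hoxb2, which carry positional identity, fell as well, from 8.76 to 10.31 and 8.02 to 9.01 in melanocytes to 2.00 to 7.44 and 2.03 to 7.15 in tumours. At least 4 of the 6 tumours lay below the dim level for C1qtnf3, Kcna1, Cdk18, Hoxb9 and Hoxb2, so the sizes of these decreases rest in part on dim signal.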

How the data were processed

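RNA of 6 iHRAS* tumours, 4 melanocyte samples and 6 tumours of the other model was hybridised to Affymetrix mouse arrays, after Trizol and RNeasy extraction and labelling as biotinylated cRNA, per the labels' protocols. The deposited table holds log2 signals. No source used here says how the authors summarised and normalized them, and background correction could change low values most. Values were therefore quantile-normalized here after 64 control probe sets had been set aside (22626 of 22690 kept; control values are given as deposited).

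Of the probe sets, 20380 had 1 gene symbol, 691 several and 1555 none in the platform annotation, and 20351 matched the reference by gene ID. The probe set with the highest mean over the 16 arrays stood for each of 12393 genes. Of 1572 called genes with a further probe set, 36 had one called the opposite way. Genes above the 40th percentile on at least 4 arrays (8651) were fitted in limma 3.58.1 (R 4.3.3) over all 16 arrays, with Benjamini-Hochberg adjustment and a threshold of 0.05. In simulated data of this comparison, 100 of 8651 genes were changed. Of changes of 1 log2 unit 59% were recovered, and of 2 log2 units 89%, with 7 false calls at each size. In the data 3404 genes were called, and recovery depends on how many genes change, so these rates may not hold there. Single values were tested by two-sided exact permutation.

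Lists and members were chosen with earlier results of these data known. By rule the text could name the largest non-overlapping changes, the leading called members of each list and the genes of the most stable class. Csf1r, Sox10, the pigment genes, Krt5, Krt14, Mmp3, Mmp13, Plaur and other genes outside that rule were named after their values had been seen. A bound divides the bright group's mean by the dim level. Promoters (250 bases before to 50 after the start) came from RefSeq, GRCm38.p6, for 7004 tested genes. The window of 1 further gene is not reported here. Same-numbered arrays did not deviate together (r from -0.05 to 0.10). Alternatives covered scaling, filter, probe set choice, variance trend, replicate block, marker covariates and left-out arrays.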

Additional observations from a re-analysis of the deposited data

Results flagged for a closer look

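In each group, a value was set apart when its gap to the nearest of the others was a large share of the group's range (Dixon's test at 95%). Of 368 groups of values examined, 24 held such a value, and chance alone would set apart about 1 in 20. Values are log2 signals, with the range of the group's other arrays after each.

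Tumour 6 read 7.83 for Cdh3 (others 4.00 to 4.84), 7.34 for the pigment enzyme gene Tyr (others 4.18 to 5.36) and 4.45 for Mc1r (others 0.14 to 0.90), the last below the dim level of the arrays. Tumour 2 read 11.54 for Epcam (others 7.88 to 8.18) and had a smooth muscle and pericyte mean of 10.76 (others 6.92 to 7.76). Tumour 1 read 5.42 for Met, where the other tumours read 6.99 to 7.46. Tumour 3 read 12.50 for Il33 (others 10.99 to 11.47). Tumour 4 read 0.51 for Hoxb6 (others 3.41 to 4.74) and 3.38 for Trpm1 (others 1.53 to 1.88), all below the dim level.

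Melanocyte array 4 read 4.69 for Kit, where the other melanocytes read 1.45 to 1.91. It also read 4.98 for Eps8 (others 5.74 to 5.87), 3.13 for Gpx3 (others 2.27 to 2.35) and 6.99 for Idi1 (others 7.52 to 7.60), and its cholesterol synthesis mean was 7.89 (others 8.37 to 8.46). For Kit, Eps8 and Gpx3 all melanocyte arrays lay below the dim level. Melanocyte array 2 read 10.80 for Amotl2 (others 11.37 to 11.43) and had a neutrophil marker mean of 4.15 (others 4.62 to 4.68), below the dim level on all melanocyte arrays. Also below the dim level, array 2 read 4.86 for Cd3e (others 3.18 to 3.45), 4.28 for Cd8a (others 3.14 to 3.26) and 0.55 for Tyr (others 4.61 to 5.38). Melanocyte array 3 read 2.18 for Dct (others 4.69 to 5.05) and 4.63 for Trpm1 (others 2.36 to 2.50), also below that level.

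Among the control probe sets, the 3′ minus 5′ signal of actin was 1.12 in tumour 4 (others 0.06 to 0.30). That of the transferrin receptor was 6.46 in tumour 6 (others 1.72 to 3.14), and that of pyruvate carboxylase was -1.03 in melanocyte array 1 (others 0.04 to 0.08).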

How the results depend on the processing

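The counts of 1565 higher and 1839 lower genes moved most with marker covariates. They were 497 and 467 with keratinocyte and fibroblast means in the fit, and 66 and 95 with endothelial and macrophage means added. Without melanocyte arrays 2 and 4, 1050 and 1119 genes were called. With the iHRAS* and melanocyte arrays alone in the fit, the counts were 1338 and 1511, and 83.1% and 79.4% of the main calls were shared. Leaving out 1 array at a time gave 1268 to 1610 higher and 1444 to 1959 lower calls. With the replicate block the counts were 1345 and 1487, although the shared numbers did not pair the arrays. Deposited values gave 1341 and 2425, and median-centred values 1336 and 2570.

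With 4 marker means in the fit, these differences turned: B2m -0.27, Braf 0.29, Cd4 -10.63, Cd74 -1.11, Col1a1 -0.79, Coro1a -2.16, Csf1r -3.70, Ddit3 3.41, F3 1.69, Gbp2 -5.15, H2-Aa -2.73, H2-D1 -0.0028, H2-K1 -0.11, Hoxb6 2.31, Hoxb9 9.37, Hspb1 0.25, Icam1 -2.04, Ifit1 -4.17, Irf1 -2.18, Kit -3.16, Mitf -0.85, Mki67 -0.12, Mmp13 -1.97, Mmp3 -2.01, Trib3 1.00 and Wif1 -1.39. With 2 marker means, Col1a1 (-1.08), Egr1 (-0.018), Erbb3 (-0.65), Hgf (0.35) and Ifit1 (-1.83) turned. Without melanocyte arrays 2 and 4, Col1a1 (-0.31), Erbb3 (-0.16) and Sox10 (-0.033) did, and without arrays 1 and 3, Mki67 (-0.18). Centring turned Mki67 (-0.0076) and Hgf (0.26), deposited values Hgf (0.28), the replicate block Hgf (0.14) and the mean of probe sets Spry2 (-0.26). Hgf ran from -0.18 to 0.15 when single arrays were left out. The cause of these turns was not tested.

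Low signals limit what can be told: where a whole group lies below the dim level, only a bound is given. The replicate block ended the calls of 3 named genes, Ifit1, Mmp13 and Rsad2, and the interferon list then held 4 called members.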

Other observations

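Among the genes that fell, amino acid supply stood out on inspection. The list of genes for amino acid synthesis, transport and tRNA charging, many of them known targets of the stress factor ATF4, was written after values had been seen, so its counts support nothing on their own. Of 31 tested, 21 fell, beside 21.3% of all genes tested. The median difference was -0.85 (-1.01 against melanocyte arrays 1 and 3, -0.79 against arrays 2 and 4). Asns, asparagine synthetase, read 9.40, 9.58 and 10.02 in tumours and 11.57, 11.04, 11.73 and 10.91 in melanocytes and fell by 1.67 ± 0.20. Psph, the last enzyme of serine synthesis, fell by 2.14 ± 0.18, and Mthfd2, of mitochondrial folate metabolism, by 2.20 ± 0.25. Chac1 and Trib3, stress-induced regulators, fell by 2.77 ± 0.28 and 2.10 ± 0.39. Atf4 itself fell by 0.73 ± 0.18 and Slc7a5, a transporter of large amino acids, by 1.16 ± 0.21. Ddit3 differed by -0.66 ± 0.52 and was not called. Off the other-cell lists, 11 of the 21 kept their call and at least 50% of their difference with 2 marker covariates and without either pair of melanocyte arrays.

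Known targets and partners of YAP and TEAD were also listed after values had been seen. The list holds Amotl2, Thbs1 and Tgfb2, given above as falling, so its counts support nothing on their own. Of 18 tested, 11 fell and 1 rose, beside 21.3% and 18.1% of all genes tested, at a median of -1.44. Ccn1, a matricellular protein, read 8.89, 9.60 and 10.52 in tumours and 12.13, 11.76, 11.33 and 11.85 in melanocytes and fell by 2.12 ± 0.44. Crim1 fell by 3.61 ± 0.61, F3, tissue factor, by 2.54 ± 0.46, and Lats2, a kinase that inhibits YAP, by 1.24 ± 0.26. Igfbp3, which binds insulin-like growth factors, went the other way, with 11.91 to 12.90 in tumours and 6.24 to 8.13 in melanocytes, a rise of 5.16 ± 0.41. Of 12 HOX genes tested, 7 fell, beside 21.3% of all genes tested, at a median of -2.39, or -1.15 with dim groups at the dim level. They include Hoxb9 and Hoxb2, given above as falling, so this count too supports nothing on its own. Hoxb3 read 2.24 to 5.86 in tumours and 6.90 to 7.37 in melanocytes, and Hoxb6 0.51 to 4.74 and 6.68 to 7.13, with bounds of 1.90-fold and 1.63-fold lower. The body sites that gave the tumours and the melanocytes are not given in the sources used here, so site and tumour state cannot be told apart for these genes.

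Xist read 11.67 to 13.07 in tumours 1 to 4, 6.60 and 6.33 in tumours 5 and 6, and 10.91 to 12.29 in melanocytes. The Y-linked Eif2s3y read 6.40 and 7.20 in tumours 5 and 6 and at most 1.32 elsewhere. Without tumours 5 and 6, the counts of higher and lower genes were within 1.5 times those of all 6.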
